A study of Mus musculus with 3 samples.

Results

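The genes described here are 8 that respond to low oxygen in most mouse cells: Ndufa4l2, Bnip3, Vegfa, Slc2a1, Pgk1, Ldha, Ankrd37 and Egln3. They were taken by symbol from the 32285 genes of the count matrix, and all 8 were measured. The set was chosen by its levels in FTOC and ORFTOC epithelium, seen in an earlier pass over these counts, so its epithelial difference is a description. Their unique molecular identifiers (UMIs, 1 per captured RNA molecule) were read in epithelial clusters, mesenchymal cells and thymocyte stages. The study asked whether thymic epithelial cells grown as organoids keep their capacity to support T-cell development once returned to a thymic environment. Cells of 2 culture types, all labelled wild-type and with no treatment, were tagged with hashtag antibodies at culture day 13 and run on 1 lane of droplet sequencing from the 5′ end of the RNA. The embryonic thymi came from C57BL/6J mice. The FTOC pool (fetal thymic organ culture) held intact embryonic thymic lobes. The ORFTOC pool (organoid reaggregate fetal thymic organ culture) held reaggregates of organoid-grown embryonic thymic epithelial cells, the remaining cells of embryonic thymi depleted of EpCAM-positive cells, and wild-type mouse embryonic fibroblasts whose strain is not given. The methods place the organoid epithelium at a later embryonic age than the lobes, and it had grown as organoids before reaggregation. Embryonic age and earlier culture thus differ between the epithelia of the pools and cannot be told apart from culture type. The sex of the cells also differed, as 0.622% of FTOC and 48.7% of ORFTOC epithelial cells had a UMI of a Y-linked gene. The member Pgk1 lies on the X chromosome. By the study's methods both culture types were kept in the same medium with the epithelial growth factor FGF7, and the organoids and reaggregates also received the ROCK inhibitor thiazovivin early in culture. Whether the lobes received it too is not stated separately. The fibroblasts and the EpCAM-depleted fraction could both contribute to the mesenchymal cells of ORFTOC, and neither source is labelled. Each pool mixed 2 cultures that cannot be separated, so each pool is 1 sample, and no test between pools was possible.

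In well-oxygenated cells the prolyl hydroxylases of the Egln family mark the hypoxia-inducible factors (HIF) Hif1a and Epas1 for destruction. When oxygen is scarce the factors persist, pair with Arnt and bind the core letters ACGTG or GCGTG near genes that raise glucose uptake, glycolysis and vessel growth and lower oxygen use by mitochondria. Glycolytic genes also answer to growth signals and proliferation. In the thymus, cortical and medullary epithelial cells direct the selection of T cells, and the medulla also holds epithelial cells that resemble those of airway, skin and other peripheral tissues.

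Among the members, Slc2a1 encodes the glucose transporter GLUT1, Pgk1 the glycolytic enzyme phosphoglycerate kinase and Ldha the lactate dehydrogenase subunit that favours lactate production. Ndufa4l2 encodes a mitochondrial protein that restrains respiration under low oxygen, and Bnip3 a receptor that targets mitochondria for autophagy. Vegfa encodes the main growth factor for blood vessels, Egln3 an oxygen-sensing prolyl hydroxylase, and Ankrd37 a small ankyrin-repeat protein known as a HIF target.

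The stretch of 250 bases before the start of transcription held the core letters in most members for which RefSeq gave a promoter (build GRCm38.p6). Both strands were searched for ACGTG and GCGTG, and the palindrome CACGTG, an E-box that other factors also bind, counted once on each strand. At least 1 core was present in 6 of 7 members (85.7%) against 38.6% of 27025 genes, and at least 2 were present in 5 of 7 (71.4%) against 16.8%. The members' median GC content was 66.4% against 52.0% over all genes, and both core motifs are GC-rich. The other HIF targets had a core in 15 of 20 promoters (75.0%), the glycolysis genes in 11 of 17 (64.7%) and the mitochondrial respiration genes in 5 of 12 (41.7%). The promoter of Egln3 held 1 core, and the first listed promoter of Vegfa held 0 and its second 2. The second Vegfa stretch and the first ones of Ldha and Ankrd37 lie inside the annotated span of their gene. The 5 promoters with at least 2 cores are shown to place these letters, 5′ to 3′ on the strand of the gene, with the cores of either strand in capitals. They lie at chr7:138909507-138909756 (minus strand) for Bnip3, chr4:119108495-119108744 (plus) for Slc2a1, chrX:106186850-106187099 (plus) for Pgk1, chr7:46845554-46845803 (plus) for Ldha and chr8:45999851-46000100 (minus) for Ankrd37. A match is a run of letters and not a measured binding site.
Bnip3: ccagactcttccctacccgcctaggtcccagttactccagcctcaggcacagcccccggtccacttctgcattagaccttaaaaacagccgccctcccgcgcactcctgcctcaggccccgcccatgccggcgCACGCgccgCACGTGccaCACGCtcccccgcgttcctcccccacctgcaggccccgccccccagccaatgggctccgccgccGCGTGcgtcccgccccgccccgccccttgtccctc
Slc2a1: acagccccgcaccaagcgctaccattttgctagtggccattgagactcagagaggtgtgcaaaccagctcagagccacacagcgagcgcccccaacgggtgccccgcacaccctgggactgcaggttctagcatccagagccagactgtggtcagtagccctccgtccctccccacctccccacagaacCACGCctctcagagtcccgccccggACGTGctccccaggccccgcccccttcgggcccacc
Pgk1: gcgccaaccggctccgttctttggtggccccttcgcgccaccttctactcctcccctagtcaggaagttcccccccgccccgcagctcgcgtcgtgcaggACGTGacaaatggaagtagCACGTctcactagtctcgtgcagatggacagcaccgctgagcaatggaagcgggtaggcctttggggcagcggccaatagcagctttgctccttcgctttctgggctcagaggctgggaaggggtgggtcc
Ldha: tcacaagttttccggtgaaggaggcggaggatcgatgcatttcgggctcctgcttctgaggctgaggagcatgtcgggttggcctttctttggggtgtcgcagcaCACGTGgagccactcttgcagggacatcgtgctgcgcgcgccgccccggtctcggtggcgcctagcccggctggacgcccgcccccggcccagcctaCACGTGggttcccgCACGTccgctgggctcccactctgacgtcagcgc
Ankrd37: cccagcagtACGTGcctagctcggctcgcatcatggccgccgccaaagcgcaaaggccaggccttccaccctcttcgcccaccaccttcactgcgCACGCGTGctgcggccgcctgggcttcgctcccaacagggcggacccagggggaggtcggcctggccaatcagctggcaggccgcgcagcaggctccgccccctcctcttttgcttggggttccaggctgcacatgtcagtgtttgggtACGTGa

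After filtering and removal of doublets, 8392 cells remained, 4145 from FTOC and 4247 from ORFTOC, with medians of 4919 and 8030 UMIs. The epithelium comprised 965 FTOC cells with 12428046 UMIs and 1234 ORFTOC cells with 17193764 UMIs, at medians of 12132 and 13232.5 UMIs per cell. The epithelial markers Epcam, Krt8, Krt18 and Cdh1 together reached 5467 counts per 1000000 UMIs (CPM) in FTOC epithelium and 8601 CPM in ORFTOC epithelium. The summed immune markers stood at 115 and 119 CPM there. Levels below are CPM of summed UMIs, and all intervals are exact 95% intervals that cover counting error only. The difference between cultures of 1 type is unknown. Cell classes were rebuilt from fixed marker genes, so each name stands for cells like the named type.

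All 8 genes had lower levels in ORFTOC epithelium than in FTOC epithelium. Ndufa4l2 differed most, at 97.8 CPM in FTOC (1216 UMIs) and 27.5 CPM in ORFTOC (472 UMIs), an ORFTOC to FTOC ratio of 0.281 (0.252–0.312). Among the glycolytic genes, Pgk1 stood at 497 CPM in FTOC and 235 CPM in ORFTOC, with a ratio of 0.474 (0.455–0.493). Ldha stood at 703 and 444 CPM, a ratio of 0.631 (0.612–0.651). The glucose transporter Slc2a1 stood at 78.9 CPM in FTOC and 41.9 CPM in ORFTOC, a ratio of 0.531 (0.482–0.585). So all 3 genes of glucose use that were members were lower in the reaggregates, by less than Ndufa4l2. Vegfa had 115 and 62.6 CPM and a ratio of 0.543 (0.501–0.588). Ankrd37 was counted 224 times in FTOC and 160 times in ORFTOC, which gave 18.02 and 9.31 CPM and a ratio of 0.516 (0.419–0.635). The mitophagy receptor Bnip3 and the hydroxylase Egln3 differed least. Bnip3 had 174.0 CPM in FTOC and 116.9 CPM in ORFTOC, a ratio of 0.672 (0.632–0.714). Egln3 had 45.2 and 35.7 CPM, a ratio of 0.788 (0.702–0.886).

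A difference of at least 1.5-fold was used to mark a gene as lower or higher, and 6 of the 8 members were lower by it. Of all 9120 epithelial genes with a mean of at least 10 CPM over the pools, 4.67% were lower and 6.91% higher by the same fold, and their median log2 ratio was 0.01 against -0.90 for the members. Ldha lay just inside the threshold at a ratio of 0.631, and Bnip3, at 0.672, just outside it. The summed level of the 8 genes was 1729 CPM in FTOC and 973 CPM in ORFTOC, a ratio of 0.563 (0.551–0.574). The paralogues did not all go the same way. Ndufa4, the ubiquitous relative of Ndufa4l2 and a component of the respiratory chain, stood at 590 CPM in FTOC and 688 CPM in ORFTOC, a ratio of 1.17 (1.13–1.20). Ldhb, the lactate dehydrogenase subunit that favours use of lactate, stood at 153 and 90.1 CPM, a ratio of 0.588 (0.550–0.630).

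**Figure D1:**
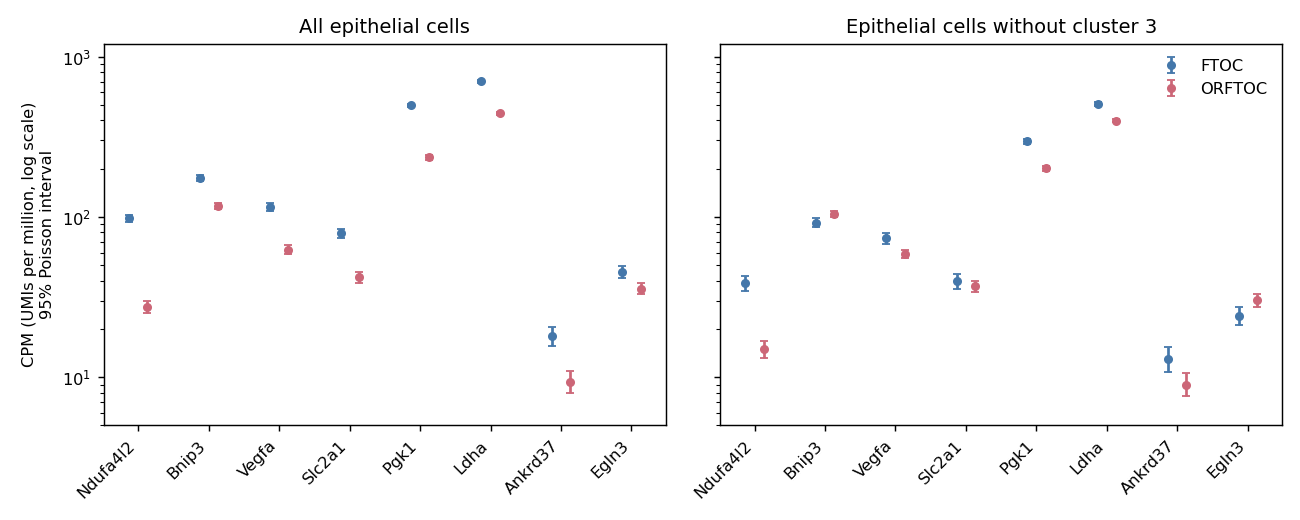
Level of each of the 8 genes in FTOC and ORFTOC, in CPM of summed UMIs on a log axis, in all epithelial cells (left) and without the epithelial cluster numbered 3 (right), with exact 95% Poisson intervals for counting error. On the left every FTOC point lies above its ORFTOC point, with the widest gap for Ndufa4l2 (97.8 against 27.5 CPM), and on the right Bnip3 and Egln3 lie the other way round.

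The share of epithelial cells with at least 1 UMI followed the levels. Ndufa4l2 was detected in 17.1% of FTOC and 5.43% of ORFTOC epithelial cells, and in 12.0% and 3.31% after each cell was thinned to 3000 UMIs, a depth that 939 FTOC and 1210 ORFTOC cells reached. In the immune compartment, at medians of 2475.5 and 5312.5 UMIs, Ndufa4l2 was detected in 0.674% of FTOC and 1.11% of ORFTOC cells. That compartment also held 76 FTOC and 67 ORFTOC cells named parathyroid, which are not immune cells. Bnip3 was detected in 55.5% and 46.8% of epithelial cells and Vegfa in 55.1% and 44.4%. Pgk1 was detected in 84.8% and 76.5% of cells, and in 55.6% and 37.1% at the thinned depth. Egln3 was detected in 25.1% of cells of both pools at full depth, and in 10.8% of FTOC and 8.93% of ORFTOC cells when thinned. Droplets with at most 50 UMIs, which hold free RNA, carried Ndufa4l2 at 54.7 CPM and Ldha at 546 CPM, between the epithelial levels of the pools for both genes. They carried Egln3 at 50.4 CPM, above its epithelial level in both pools, and Bnip3 at 97.5 CPM, below both.

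Epithelial cells were clustered without the members or the pathway genes, and the genes were far from even over the 9 clusters. Cluster 3, led by Igfbp2, the member Ndufa4l2 and Aqp3 and given no cell type name (Ndufa4l2 took no part in the clustering), held the highest summed level of the clusters with at least 20 cells in each pool. It made up 293 of 965 FTOC epithelial cells (30.4%) but 50 of 1234 ORFTOC cells (4.05%). Its summed level was 3527 CPM in FTOC and 3604 CPM in ORFTOC, a ratio of 1.02 (0.979–1.07). In the 5 other clusterings the matched cluster had a higher sum in ORFTOC, by up to 0.53 on the log2 scale (3821 CPM in FTOC and 5524 CPM in ORFTOC with the members kept for clustering), so equal levels do not hold under every clustering. Over the other epithelial cells of its own pool that sum was 3.24-fold higher in FTOC (3.16–3.33) and 4.22-fold higher in ORFTOC (4.05–4.40). Against cluster 1, the medullary epithelial cells that express the chemokine Ccl21a, it was 3.31-fold higher in FTOC and 3.18-fold higher in ORFTOC.

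In both pools each of the 8 genes was at least 1.5-fold higher in cluster 3 than in the remaining epithelium. That fold was passed by 7.64% of genes in FTOC and 10.3% in ORFTOC. Ndufa4l2 was 6.85-fold higher in FTOC and 20.3-fold higher in ORFTOC. Slc2a1 was 4.75-fold and 4.10-fold higher, and Egln3 4.32-fold and 5.21-fold higher. Ankrd37 was higher by 2.47-fold in FTOC and 1.79-fold in ORFTOC, where the interval (0.904–3.22) included 1. The paralogues ran the other way. Ndufa4 in cluster 3 stood at 0.565 of its level in the remaining FTOC epithelium and 0.746 in ORFTOC, and Ldhb at 0.603 and 0.362.

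Between the pools, cluster 3 differed in only some of the 8 genes. Vegfa stood at 233 CPM in FTOC and 148 CPM in ORFTOC, a ratio of 0.635 (0.515–0.776), and Ankrd37 at 32.1 and 16.1 CPM. Egln3 stood at 104 CPM in FTOC and 157 CPM in ORFTOC, a ratio of 1.505 (1.21–1.86). By the 1.5-fold mark 2 members were lower and 1 higher in ORFTOC, where 17.8% of genes were lower and 9.09% higher. Ndufa4l2 had 264 CPM in FTOC and 303 CPM in ORFTOC, with a ratio of 1.15 whose interval (0.988–1.33) included 1. In 4 of the 5 other clusterings its level in the matched cluster was lower in ORFTOC, for example 225 CPM in FTOC and 111 CPM in ORFTOC without cell cycle regression, so no direction can be given. The ORFTOC cells of cluster 3 also carried more mesenchymal marker RNA, at 390 CPM of the summed markers against 52.3 CPM in FTOC. Its epithelial markers summed to 3563 CPM in FTOC and 3589 CPM in ORFTOC. The part of the mesenchymal RNA in these levels was not tested.

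Much of the epithelial RNA of these genes sat in cluster 3 in FTOC. The cluster held 26.3% of all epithelial UMIs of FTOC, but 71.0% of the Ndufa4l2 UMIs, 62.9% of Slc2a1, 60.9% of Bnip3, 60.7% of Egln3 and 46.6% of Ldha. In ORFTOC it held 4.34% of all epithelial UMIs, 47.9% of those of Ndufa4l2 and between 7.50% and 19.1% of those of the other 7 genes. Without cluster 3 the epithelial sum was 1087 CPM in FTOC and 854 CPM in ORFTOC, a ratio of 0.785 (0.765–0.806), and 1 of 8 members was still lower by 1.5-fold against 4.28% of all genes, while 0 were higher against 5.74%. That gene was Ndufa4l2, at 38.5 and 14.96 CPM. Bnip3 then had a ratio of 1.13 (1.04–1.23), Egln3 1.25 (1.06–1.47) and Slc2a1 0.930 (0.815–1.06). With every cluster given the same weight in both pools, the log2 ratio of the sum was -0.17, against -0.83 for the pools as they were. Other clusterings moved this value to between -0.09 and 0.09, so its sign is not settled. So the lower epithelial level in ORFTOC went with a lower share of cluster 3, among other differences in cluster shares. The direction for Bnip3 and Egln3 changed without cluster 3, and also when the shares of all clusters were held equal.

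**Figure D2:**
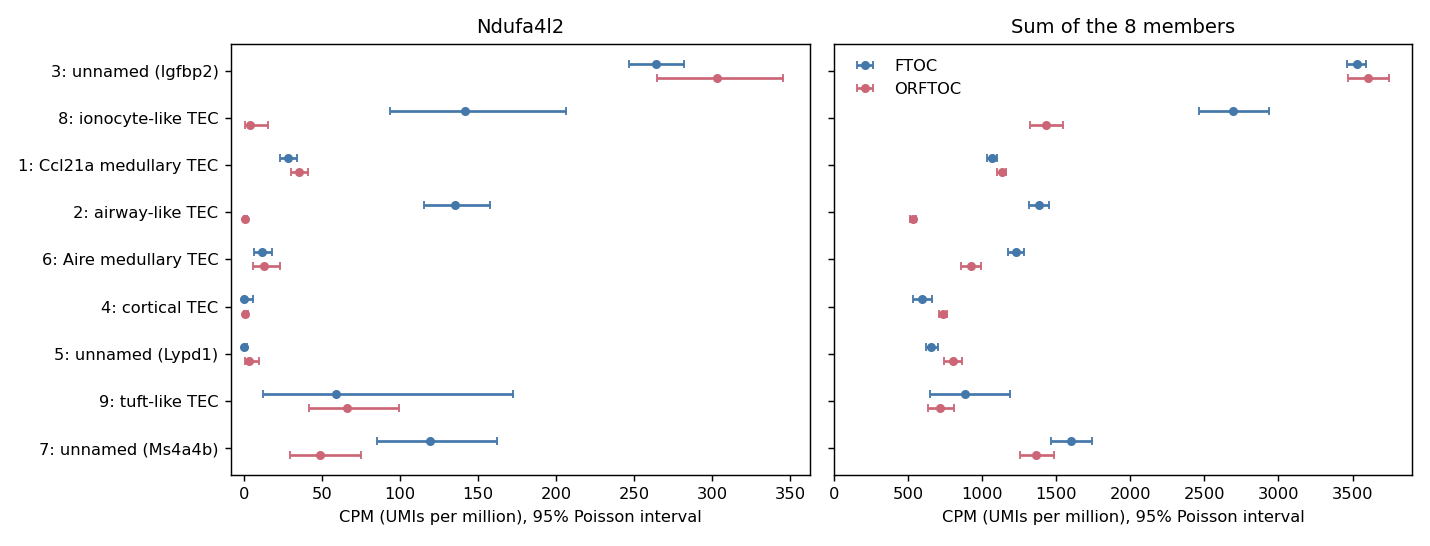
Level of Ndufa4l2 (left) and of the 8 genes summed (right) in each epithelial cluster of FTOC and ORFTOC, in CPM, as points with exact 95% Poisson intervals for counting error. Cluster 3 stands highest in both panels, with sums of 3527 CPM in FTOC and 3604 CPM in ORFTOC, and the airway-like cluster 2 has the widest gap in Ndufa4l2 among clusters with at least 20 cells in each pool (135 against 0.692 CPM).

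The pool assignment of the FTOC cells of cluster 3 was weaker than that of the rest of the FTOC epithelium. Their median count of the FTOC tag was 438 and of the other tag 63, and 210 of 293 (71.7%) had the FTOC tag at least 5 times the other. In the rest of the FTOC epithelium the median was 1301.5 and 94.3% passed that ratio. All 50 ORFTOC cells of cluster 3 passed it for their own tag. The RNA gave a separate reading of origin. Only 1 of the 293 cells (0.341%) had a UMI of a Y-linked gene, as did 0.622% of all FTOC epithelial cells, against 48.7% of ORFTOC epithelial cells. When cells were assigned by the tag ratio in place of the mixture of tag counts, the doublet rule, which scales with the number of doublets between pools, removed 201 further cluster 3 cells of FTOC and left 9. The log2 ratio of the sum then became -0.22, with 0 of 8 members past 1.5-fold. With the same tag ratio and the doublet removal kept as described, an alternative chosen after seeing the data, it was -0.70, with 5 of 8 lower.

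The airway-like cells of cluster 2 were lower in ORFTOC for all 8 genes. These cells express secreted defence proteins of airway epithelium and made up 108 FTOC cells (11.2% of its epithelium) and 353 ORFTOC cells (28.6%). Ndufa4l2 was counted 160 times in FTOC and 3 times in ORFTOC, which gave 135 and 0.692 CPM and a ratio of 0.00511 (0.00104–0.0152). Egln3 stood at 67.7 CPM in FTOC and 22.2 CPM in ORFTOC, Bnip3 at 117 and 44.3 CPM, and Ankrd37 at 36.4 and 8.77 CPM. Pgk1 stood at 365 and 119 CPM, Ldha at 538 and 272 CPM, Vegfa at 82.1 and 41.3 CPM and Slc2a1 at 42.3 and 27.5 CPM. In this cluster 8 of 8 members were lower by 1.5-fold against 6.84% of genes, 8.63% of genes were higher, and the ratio of the sum was 0.387 (0.363–0.412). Other glycolysis genes shared the direction, with 12 of 15 lower and a median log2 ratio of -0.96. Of the other HIF targets 6 of 13 were lower and 1 higher, with a median of -0.51. Ndufa4 differed little, at a ratio of 1.13. Ldhb, 1 of the glycolysis genes, was lower at 0.371 (0.319–0.432). Its ratio was also below 1 in clusters 1, 3, 4, 5 and 6, from 0.325 in cluster 3 to 0.760 in cluster 1.

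In the other clusters with at least 20 cells in each pool the sum of the 8 genes differed less. Bnip3 was higher in ORFTOC in clusters 1, 4 and 5, and Egln3 in clusters 1 and 4. In the Ccl21a medullary cells of cluster 1 (288 FTOC and 382 ORFTOC cells), Bnip3 stood at 83.6 CPM in FTOC and 129 CPM in ORFTOC, a ratio of 1.55 (1.35–1.77). Egln3 there stood at 14.8 and 40.9 CPM, a ratio of 2.77 (2.05–3.79). Of the 7 members measured at 10 CPM or more, these 2 were higher by 1.5-fold against 4.32% of genes and 0 lower against 3.08%, while the sum had a ratio of 1.06. In the cortical epithelial cells of cluster 4, Bnip3 stood at 75.9 and 135 CPM, a ratio of 1.77 (1.31–2.46). Egln3 in these cortical cells was counted 5 times in 37 FTOC cells and 113 times in 261 ORFTOC cells, a ratio of 3.24 (1.35–10.2). There 2 of 6 measured members were higher against 11.4% of genes, and 0 lower against 10.6%. Ndufa4l2 was nearly absent from cortical cells, with 4 UMIs in ORFTOC and 0 in FTOC, where 0 UMIs allows up to 5.06 CPM.

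Cluster 5, led by Lypd1, Prss23 and Pvalb and left unnamed, had Bnip3 at 78.4 CPM in FTOC and 148 CPM in ORFTOC, a ratio of 1.89 (1.47–2.44). It was the 1 of 6 measured members that passed the fold upward, against 8.56% of genes, and 0 were lower, against 11.1%. The Aire-expressing medullary cells of cluster 6 had a lower sum in ORFTOC, at 1227 CPM in FTOC and 926 CPM in ORFTOC, with Ldha at a ratio of 0.690 (0.613–0.777), short of the mark. In them 2 of 8 members passed the mark downward, Ankrd37 (0.600) and Egln3 (0.591), and 1 upward, Vegfa (1.67), against 10.8% and 12.7% of genes. All 3 had intervals that included 1. The ionocyte-like cells of cluster 8 were few, at 15 FTOC and 28 ORFTOC cells, and had Ndufa4l2 at 141.8 CPM in FTOC and 4.28 CPM in ORFTOC. Cluster 7 (24 and 26 cells) was led by the T-cell genes Ms4a4b and Cd3d and stayed unnamed, and leaving it out gave a log2 ratio of the epithelial sum of -0.85.

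**Figure D3:**
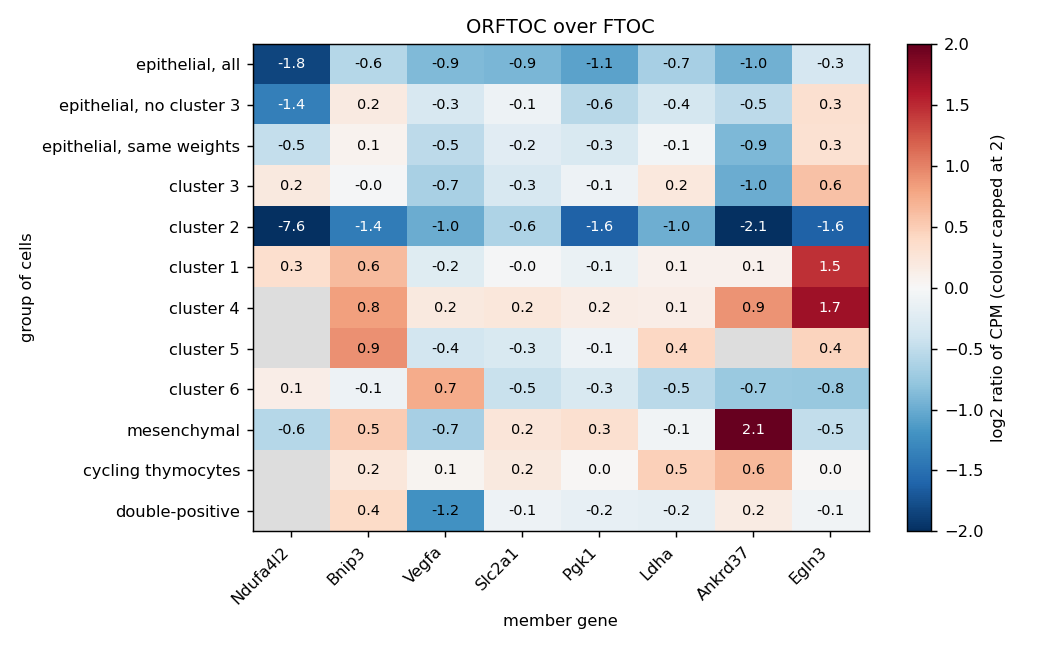
The log2 ratio of ORFTOC to FTOC level for each of the 8 genes (columns) in groups of cells (rows), as numbers and colours, with the colour capped at 2 either way and grey where both pools together held under 20 UMIs. The airway-like cells of cluster 2 are lower in ORFTOC throughout, from Ndufa4l2 (-7.61) to Slc2a1 (-0.62), while Bnip3 and Egln3 are higher in clusters 1 and 4.

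The other genes of the oxygen response were measured as fixed lists. Of 21 other HIF targets with at least 10 CPM, 8 were lower and 3 higher in ORFTOC epithelium, with a median log2 ratio of -0.43. Car9, a carbonic anhydrase that exports acid, stood at 18.7 CPM in FTOC and 4.71 CPM in ORFTOC. Ero1l, which drives disulphide formation in the endoplasmic reticulum, stood at 151 and 73.7 CPM. The collagen prolyl hydroxylase P4ha1 stood at 55.4 CPM in FTOC and 27.9 CPM in ORFTOC. Higher in ORFTOC were the secreted glycoprotein Stc2, at 8.93 and 27.6 CPM, the mTORC1 inhibitor Ddit4, at 254 and 381 CPM, and the glycolysis regulator Pfkfb3, at a ratio of 1.55. Without cluster 3, 1 of 20 other HIF targets was lower and 4 were higher, with a median of 0.12, so this list also turned with that cluster.

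Of 16 other glycolysis genes, 5 were lower and 0 higher, with a median of -0.51. The lactate exporter Slc16a3 stood at 28.3 CPM in FTOC and 12.6 CPM in ORFTOC, its chaperone Bsg at 941 and 596 CPM, and the enzyme genes Gapdh at 810 and 535 CPM and Pgam1 at 484 and 320 CPM. The fifth was Ldhb. Without cluster 3, 1 of 15 was lower and 1 higher, with a median of -0.12. Of 18 mitochondrial respiration genes 0 passed the fold either way, and their median was 0.02.

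Among 8 genes of the HIF pathway itself, Epas1 (HIF-2α) was higher in ORFTOC epithelium at 29.8 CPM against 10.46 CPM, and Arnt2, a partner of the HIF factors, lower at 9.19 against 17.9 CPM. Most Epas1 UMIs came from the airway-like cells, 104 of 130 in FTOC and 388 of 512 in ORFTOC, and its level within them was 88.0 CPM in FTOC and 89.5 CPM in ORFTOC. Hif1a RNA stood at 299 CPM in FTOC and 298 CPM in ORFTOC. Hif1a protein is regulated mainly by its breakdown, which RNA counts do not read. Of 10 dissociation stress genes 0 passed the fold either way (median 0.12), and of 2 measured VEGF ligands and receptors also 0 (median -0.21). Of 8 integrated stress response genes, Phgdh was lower and Slc7a11 higher. Of 10 cell cycle genes 5 were lower in ORFTOC epithelium and 0 higher, with a median of -0.55, and 7 were lower without cluster 3.

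Inside cluster 3 the lists of other HIF targets and glycolysis genes stood high as well. Over the remaining epithelium of the same pool, 16 of 22 other HIF targets were higher in FTOC and 0 lower, and 12 of 22 were higher in ORFTOC and 2 lower, against 7.64% and 10.3% of all genes higher. Ndrg1, a stress-induced gene of epithelial differentiation, was 10.9-fold higher in FTOC and 6.82-fold in ORFTOC, and Car9 7.86-fold and 7.72-fold. Of the glycolysis genes 12 of 16 were higher in FTOC and 1 lower, and 11 of 16 were higher in ORFTOC and 2 lower, led by Slc16a3 at 9.08-fold and 8.83-fold. The HIF pathway list did not stand high. Of its 7 measured genes 1 was higher and 1 lower in FTOC, and 2 were higher and 1 lower in ORFTOC. Egln1, the main oxygen-sensing hydroxylase, was 4.17-fold higher in FTOC and 3.19-fold in ORFTOC. Hif1a was 1.38-fold higher in FTOC, short of the mark, and 1.73-fold in ORFTOC. The lower genes were Arnt2 in FTOC, at a ratio of 0.524, and Vhl in ORFTOC, at 0.602. Cox4i2, an alternative subunit of cytochrome c oxidase, stood at 34.9 CPM in cluster 3 of FTOC and 1.09 CPM in the other FTOC epithelial cells, a 31.9-fold difference (16.8–68.4). Its ubiquitous counterpart Cox4i1 stood at 991 and 1076 CPM. Of 19 mitochondrial respiration genes in FTOC, Cox4i2 was the 1 higher gene, and 1 was lower. In ORFTOC Cox4i2 fell short of the mean of 10 CPM needed to be measured. There 0 of 18 genes of this list were higher and 1 lower. Epas1 had 0 UMIs in cluster 3 of FTOC and 24 in ORFTOC, where the mesenchymal markers were also more frequent. Of 10 dissociation stress genes 4 were higher and 0 lower in cluster 3 in FTOC, and 1 was higher and 2 lower in ORFTOC. Cell cycle genes went different ways in the pools. In FTOC 0 of 10 were higher and 5 lower, with the mitotic cyclin Ccnb1 at 3.37 CPM in cluster 3 and 17.4 CPM elsewhere. In ORFTOC 4 of 8 were higher and 1 lower, with the replication gene Mcm5 at 59.0 and 13.3 CPM, a 4.45-fold difference. The part of the cell cycle in the levels of cluster 3 was not tested.

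Within clusters, cells with much RNA of 1 of these genes tended to have much of the others. After removal of cluster means, the mean correlation over 28 pairs of members was 0.323 across FTOC epithelial cells and 0.264 across ORFTOC epithelial cells, from pairs at 0.095 to 0.619 and at 0.077 to 0.518. The highest pair was Pgk1 and Ldha in FTOC and Bnip3 and Pgk1 in ORFTOC, and the lowest in both was Ndufa4l2 and Ankrd37. Cells of a pool share 1 library and differ in depth, and the members' mean level had a correlation of 0.018 (FTOC) and 0.027 (ORFTOC) with the log UMI total and of -0.194 and -0.089 with the mitochondrial share. Among the airway-like cells the mean pair correlation was 0.381 in FTOC and 0.113 in ORFTOC, where the counts were also lower. In cluster 3 it was 0.394 and 0.368.

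Of 8855 genes detected in at least 10% of epithelial cells of each pool, those whose level ran most like the members' mean were Ndrg1 (r = 0.648 in FTOC, 0.698 in ORFTOC), Fam162a (0.665, 0.646), Tpi1 (0.685, 0.642), Aldoa (0.653, 0.595) and Pkm (0.652, 0.588). Tpi1, Aldoa and Pkm encode glycolytic enzymes, and Fam162a a mitochondrial protein induced by HIF. At the other end, among genes picked after their values were seen, the lowest of the 8855 was Ndufa4, at -0.320 in FTOC and -0.298 in ORFTOC. The mitochondrially encoded mt-Cytb followed at -0.356 and -0.174. Of the genes compared, the Ndufa4 paralogue thus ran most against the members, by the higher of its values in the 2 pools.

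**Figure D4:**
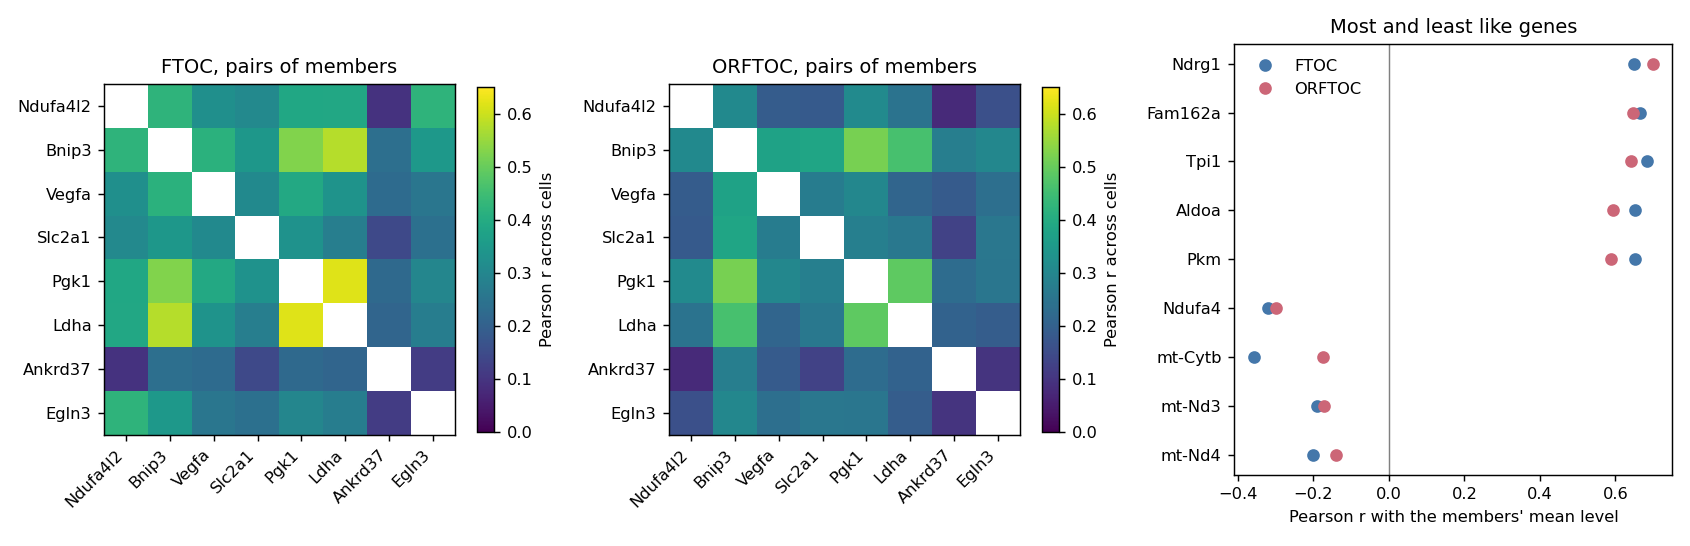
Pearson correlation of log-normalised levels between each pair of the 8 genes across epithelial cells of FTOC (left) and ORFTOC (middle), by colour, and the correlation of single genes with the members' mean level in each pool (right), all after removal of cluster means. Pairs reach 0.619 in FTOC and 0.518 in ORFTOC, the row of Ankrd37 is the darkest, and Ndufa4 lies at -0.320 and -0.298.

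Ndufa4l2 was concentrated in few cells. The 87 FTOC epithelial cells with at least 5 Ndufa4l2 UMIs held 87.7% of its epithelial UMIs, and the 28 such ORFTOC cells held 82.2%, with maxima of 46 and 42 UMIs in 1 cell. When cells were ranked by the other 7 members, the top 10% held 58.6% of Ndufa4l2 UMIs in FTOC and 86.4% in ORFTOC, against 9.03% and 9.48% of all UMIs. Of these top cells, 81 of 96 in FTOC lay in cluster 3. In ORFTOC the 123 top cells included 48 of cluster 1, 31 of cluster 3 and 22 of cluster 4. Most Ndufa4l2 RNA thus lay in the top 10% of epithelial cells by the other 7 members, in both pools. Not all such cells carried it, as cluster 4 held 0.847% of the Ndufa4l2 UMIs of ORFTOC epithelium.

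The mesenchymal cells (64 in FTOC, 227 in ORFTOC) had more Ndufa4l2 than the epithelium as a whole in both pools. Ndufa4l2 stood at 316 CPM in FTOC mesenchyme and 212 CPM in ORFTOC mesenchyme, a ratio of 0.671 (0.596–0.758). Over the epithelium of the same pool this was 3.23-fold higher in FTOC (2.86–3.63) and 7.72-fold higher in ORFTOC (6.92–8.62). Epithelial cluster 3 alone had 264 CPM in FTOC, below the mesenchyme, and 303 CPM in ORFTOC, above it. The rebuilt doublet rule had removed much of the mesenchyme. With within-pool doublets kept, an alternative chosen after seeing the data, it held 130 FTOC and 454 ORFTOC cells, and Ndufa4l2 was 2.03-fold and 5.53-fold higher than in epithelium, at 196 and 138.7 CPM. Vegfa stood at 249 CPM in FTOC and 157 CPM in ORFTOC, a ratio of 0.632 (0.551–0.725), and Egln3 at 73.8 and 52.4 CPM. Bnip3 was at 75.5 and 107 CPM, a ratio of 1.42 (1.13–1.80), and Pgk1 at 218 and 271 CPM, a ratio of 1.25 (1.09–1.43). Ankrd37 was counted 4 times in FTOC and 77 times in ORFTOC, a ratio of 4.42 (1.66–16.6), and was too low overall to enter the count of measured genes. Of 7 members in that count, Vegfa alone was lower by 1.5-fold and 0 were higher, against 11.7% and 4.85% of genes. The summed level was 1767 CPM in FTOC and 1620 CPM in ORFTOC, a ratio of 0.917 (0.873–0.963). The median gene also lay below 0, at a log2 ratio of -0.10, and the sum changed sign when the pools were scaled by the trimmed mean of M values, TMM (0.01), or assigned by the tag ratio (0.39).

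Mural cells, the pericytes and smooth muscle cells that wrap vessels, are a known site of Ndufa4l2. The summed mural markers stood at 890 CPM in FTOC mesenchyme and 264 CPM in ORFTOC mesenchyme. In epithelium the same sum was 236 CPM in FTOC and 282 CPM in ORFTOC, so the ORFTOC mesenchyme did not exceed it. The mural marker Rgs5 was also the leading gene of epithelial cluster 1. Across mesenchymal cells, the correlation of Ndufa4l2 with the mural markers was 0.513 over 64 FTOC cells and 0.0276 over 227 ORFTOC cells. Cox4i2 and Epas1, which pericytes also express, stood at 88.3 CPM each in FTOC and at 13.6 and 29.2 CPM in ORFTOC. The part of the mural cells in the Ndufa4l2 level was not tested. Of 10 integrated stress response genes 6 were higher in ORFTOC mesenchyme, with a median log2 ratio of 0.93. The cystine transporter Slc7a11 had a ratio of 6.85, and Asns, which makes asparagine, 2.91. Of 17 glycolysis genes 2 were lower, and of 21 other HIF targets 5 were lower and 5 higher.

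Thymocytes showed a smaller and different pattern. In double-positive thymocytes (1502 FTOC and 599 ORFTOC cells), the CD4 and CD8 stage before selection, the sum stood at 681 CPM in FTOC and 617 CPM in ORFTOC, a ratio of 0.906 (0.828–0.991). By 1.5-fold, 0 of 6 measured members differed, against 3.68% of genes lower and 3.59% higher. In cycling thymocytes (320 and 348 cells) the sum was higher, at 1359 CPM in FTOC and 1708 CPM in ORFTOC, a ratio of 1.26 (1.21–1.31). Ldha stood there at 857 and 1188 CPM, a ratio of 1.39 (1.32–1.46). The 1 of 6 measured members past the fold was Ankrd37, at 10.7 and 16.8 CPM, against 1.97% of genes higher and 6.66% lower. Mature single-positive thymocytes had sums of 900 and 1123 CPM, a ratio of 1.25 (1.15–1.36), with Pgk1 at 157 and 218 CPM. Selected thymocytes had sums of 996 and 1040 CPM, a ratio of 1.04 whose interval (0.894–1.22) included 1.

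The gap between epithelium and thymocytes depended on the gene. Epithelium exceeded double-positive thymocytes in the sum by 2.54-fold in FTOC (2.42–2.66) and 1.58-fold in ORFTOC (1.46–1.71). Vegfa was 10.7-fold higher in epithelium in FTOC and 13.4-fold in ORFTOC, and Bnip3 9.39-fold and 4.82-fold. Ldha was 1.77-fold and 1.26-fold higher, and Egln3 1.25-fold and 1.03-fold. Ndufa4l2 was low in thymocytes, at 2.22 CPM in FTOC and 4.66 CPM in ORFTOC double-positive cells and at 0.370 and 0.447 CPM in cycling cells, with 1 to 6 UMIs behind each of these values, where free RNA carried it at 54.7 CPM. Ldhb ran against Ldha over the stages, from 958 CPM in FTOC and 1057 CPM in ORFTOC double-positive cells to 35.7 and 49.9 CPM in mature cells. Cycling thymocytes exceeded double-positive ones in the sum by 1.99-fold in FTOC and 2.77-fold in ORFTOC.

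**Figure D5:**
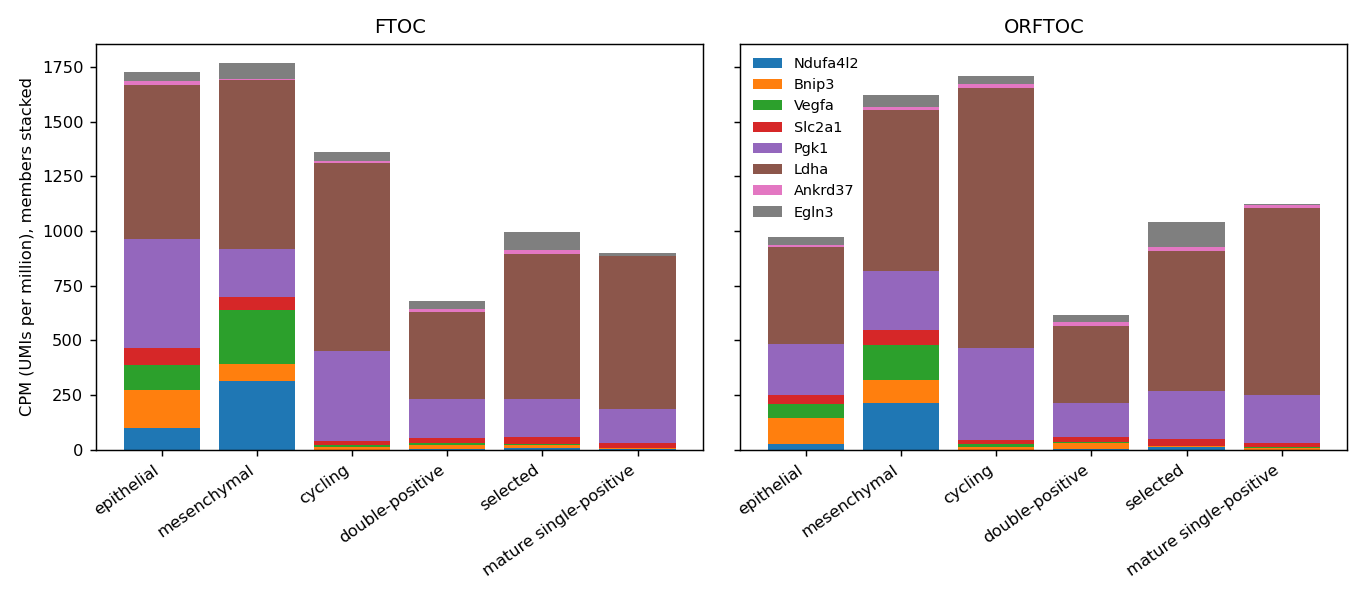
Summed level of the 8 genes in CPM in epithelial cells, mesenchymal cells and 4 thymocyte stages of FTOC and ORFTOC, each bar stacked by gene. The epithelial bar is the lower one in ORFTOC (973 against 1729 CPM), while the bars of cycling and mature thymocytes are the higher ones in ORFTOC.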

How the data were processed

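The authors aligned the 5′ droplet reads to mm10 with Cell Ranger (6.1.2 by the submitters' notes) and deposited raw UMI counts per gene and barcode, together with hashtag counts. Barcodes of 1 lane were kept with at least 600 genes and 0.4–10% mitochondrial UMIs (10245 of 705161). HTODemux (Seurat 5.3.0, quantile 0.99) gave 4354 FTOC and 4629 ORFTOC cells, 590 between-pool doublets and 672 negatives. A neighbour rule, with 50 neighbours and the authors' setting rebuilt from their description, removed 591 within-pool doublets, and no other doublet caller was run. Cells were clustered after SCTransform (sctransform 0.4.2) with cell cycle regressed, 18 principal components and resolutions of 0.4 (all cells, epithelium) and 1 (immune), with the members and lists left out. Clusters were named from fixed markers with at least 3 markers and a score of 0.5, limits set after seeing the leading genes. Rows sharing a symbol were summed.

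Levels are summed UMIs as counts per 1000000 UMIs (CPM). Each pool is 1 sample, so no p-value is given. Intervals are exact Poisson for levels, exact conditional binomial for ratios and Clopper-Pearson for shares, at 95%, for counting error only. A count of 0 was read as up to 3 counts, and in ratios of summed counts any count under 3 was set to 3. A gene was measured at a mean of at least 10 CPM and past the mark at 1.5-fold. On simulated counts the ratio step was tested before use. The members, lists and tests were chosen with earlier results of these data known. Named genes are the members, Ndufa4 and Ldhb, list genes past the mark (or the 3 largest each way), the 5 genes most like the members and up to 3 leading genes per cluster; Cox4i2, Cox4i1, Hif1a, Egln1 and the genes least like the members were named after their values were seen. Promoters are from RefSeq (GRCm38.p6), matched by symbol for 7 of 8 members. The alternatives are those of the closing section.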

Additional observations from a re-analysis of the deposited data

Results flagged for a closer look

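For 3 genes the ORFTOC and FTOC levels differed in opposite directions in 2 epithelial clusters, with intervals on either side of equality. Bnip3 had a log2 ratio of 0.92 in cluster 5 (Lypd1, Prss23, Pvalb) and -1.40 in the airway-like cluster 2. Ldha had 0.41 in cluster 5 and -0.98 in cluster 2. Egln3 had 1.70 in the cortical cluster 4, from 5 FTOC and 113 ORFTOC UMIs, and -1.61 in cluster 2. Free RNA carried Egln3 at 50.4 CPM, above its level in cluster 4 of both pools. It carried Bnip3 at 97.5 CPM, above its FTOC level in cluster 5. The part of free RNA in these values was not tested by cluster. Each pool is 1 sample, and the difference between clusters was not tested.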

How the results depend on the processing

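No paired analysis was possible because each pool is 1 sample of 2 mixed cultures with no replicate number, and for the same reason no replicate could be left out. The epithelial log2 ratio of the summed members, -0.83, stayed below 0 under every alternative run with the main clustering settings. It was -0.87 with free RNA subtracted or with at least 1000 genes per cell, -0.89 with cells weighted equally or only ORFTOC cells with Xist and no Y-linked UMI, -0.80 at a 5% mitochondrial limit and -0.70 for cells passing the tag ratio with doublets removed as before. It was -0.22 by the tag ratio with its own doublet removal, -0.17 at the same cluster weights, -0.35 without cluster 3 and -0.11 without clusters 2 and 3. The count of members past 1.5-fold, 6, became 0, 1, 1 and 1 in these last 4 and 2 at a 2-fold mark. The alternatives without clusters, and the tag ratio with doublets removed as before, were chosen after seeing the data. Without clusters 2 and 3 the member past the fold was the higher Egln3. At the same cluster weights, the epithelial ratio was above 0 with 30 components (0.0757) or with the members kept for clustering (0.0854).

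Ndufa4l2, Vegfa, Pgk1, Ldha and Ankrd37 were below 0 in 14 of 14 alternatives, Slc2a1 in 12, Bnip3 and Egln3 in 10. By the tag ratio Bnip3 was 0.37, Slc2a1 0.0107 and Egln3 0.55. At the same cluster weights Bnip3 was 0.0731 and Egln3 0.30, without cluster 3 they were 0.18 and 0.32, and without clusters 2 and 3 Bnip3 was 0.50, Slc2a1 0.0363 and Egln3 0.90. Dropping cluster 3 and equal cluster weights change its share by construction, and the tag ratio left 9 of 293 FTOC and 26 of 50 ORFTOC cells of it. The mean within clusters, -0.17, was -0.0734 with log-normalised counts, -0.0935 without cell cycle regression, -0.0933 at resolution 0.8, 0.0757 with 30 components and 0.0854 with the members kept for clustering.

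The mesenchymal sum, -0.13, was 0.0148 under TMM, 0.39 by the tag ratio, -0.22 with equal weights, -0.25 at 1000 genes and -0.0447 with the tag ratio and doublets removed as before. TMM raised all log2 ratios there by 0.14, and those of cycling thymocytes by 0.13. The cycling thymocyte sum, 0.33, was 0.46 under TMM, 0.24 by the tag ratio, 0.13 in Xist cells, 0.25 with log-normalised counts, 0.19 without cell cycle regression and 0.26 with the members kept. Epithelium over double-positive thymocytes, 1.34 in FTOC and 0.66 in ORFTOC, was 1.43 (FTOC) with free RNA subtracted, 1.52 and 0.96 under TMM, 1.53 (FTOC) with equal weights and 1.26 (FTOC) at the 5% limit. Thinned to 1000 UMIs, the mean share of cells with a UMI was 15.3% in FTOC and 9.17% in ORFTOC, against 28.6% and 19.6% at 3000. The causes of these shifts were not tested. Cluster 3, matched over the other clusterings, held 28.6–34.3% of FTOC and 1.70–2.75% of ORFTOC epithelium. In ORFTOC all of these shares were below the 4.05% of the main clustering. With 64 FTOC mesenchymal cells and 37 FTOC cortical cells, depth limits the values of low genes there.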

Other observations

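Other immune cells of the cultures also carried the 8 genes. Innate lymphoid cells of type 2 had a summed level of 1895 CPM in FTOC and 1364 CPM in ORFTOC, and those of type 3 had 984 and 1058 CPM. Natural killer or cytotoxic lymphoid cells had 1332 CPM in FTOC and 1189 CPM in ORFTOC, gamma-delta T cells 1118 and 1053 CPM, and macrophages or monocytes 957 and 1004 CPM. ORFTOC epithelial cells with Xist and no Y-linked UMI (436 cells) had a summed level of 932 CPM, and those with Y-linked UMIs and no Xist (511 cells) had 1032 CPM. FTOC epithelial cells that did not pass the tag ratio (121 cells) had a summed level of 3010 CPM, and those that passed it (844 cells) had 1580 CPM.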
